A study of Mus musculus with 6 samples.

Results

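The small RNA of exosomes, the vesicles that cells release into their medium, was sequenced for cultured mouse dermal fibroblasts (Fb, 3 libraries) and epidermal stem cells (ESC, 3 libraries). Both cell types came from dorsal skin at passage 0-1, and the design sets the exosomes of one against those of the other. Per the labels' protocols, the Fb came from db/db mice, a model of obesity and diabetes, at 14 weeks of age, were grown in DMEM with 10% serum and spent 2 days in serum-free medium before collection. The ESC came from C57BL/6 mice at 3 weeks of age, were selected by fast adhesion to collagen IV and grew without serum in keratinocyte medium. The strain label reads C57BL/6 for all libraries. Cell type, donor genotype, age and medium changed together and cannot be told apart. The miRNAs described here are mmu-miR-132-3p with mmu-miR-212-3p, and mmu-miR-221-3p with mmu-miR-222-3p, written below without the prefix. They were chosen by name, as 2 pairs that are each transcribed together and induced by cell stimulation, and are 4 of the 1964 mature miRNAs among the 16310 RNAs listed. No arm of the study stimulated the cells, so induction itself was not measured.

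A miRNA guides the silencing machinery to mRNAs that pair with its seed, the bases near its 5′ end, and members of a pair with one seed can bind the same sites. The miR-132/miR-212 pair is best known in neurons, where the transcription factor CREB induces it after activity. In skin wounds miR-132 has been described in keratinocytes, at the passage from the inflammatory to the proliferative phase of repair. The miR-221/miR-222 pair is known from dividing and growth-factor-treated cells, where it represses the cell cycle inhibitor p27 (Cdkn1b), and from endothelial and melanocytic cells, where it represses the receptor Kit. None of these target mRNAs was measured here, since the tables hold non-coding RNAs.

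The mature sequences show what each pair shares. They come from RefSeq (GRCm38.p6), which held all 4, and the capitals mark the seed, bases 2 to 8 counted from the 5′ end.
mmu-miR-132-3p: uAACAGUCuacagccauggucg
mmu-miR-212-3p: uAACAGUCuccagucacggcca
mmu-miR-221-3p: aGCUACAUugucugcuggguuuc
mmu-miR-222-3p: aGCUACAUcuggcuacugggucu
The seed was the same within a pair and different between the pairs. miR-132-3p and miR-212-3p share their first 9 bases and 17 of 22 positions, and differ from base 10 onward (from miR-132-3p to miR-212-3p: A10C, C14U, U17C, U20C and G22A). miR-221-3p and miR-222-3p share their first 8 bases and 11 of 23 positions without gaps. Each of the 4 sequences occurred in 1 hairpin of the RefSeq table, so a full-length read has 1 source among those hairpins. One further miRNA of that table has the seed of miR-221/miR-222, miR-1928, and it had 0 reads in every library.

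Both pairs lie close together in the genome (GRCm38). The Mir212 hairpin is at chr11:75173388-75173478 and the Mir132 hairpin at chr11:75173682-75173747, both on the plus strand with 203 bases between them. GENCODE M21 places both inside the non-coding gene 1700016P03Rik (75172560 to 75177633, plus strand), with no annotated exon overlapping either hairpin, so both are intronic. Mir221 is at chrX:19146294-19146388 and Mir222 at chrX:19146893-19146971, both on the minus strand with 504 bases between them and no annotated gene spanning either. Apart from the hairpins themselves, no gene annotated within 10 kb of them had a row in the tables.

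Depth differed between the groups. The tables assigned 6914504 to 8691350 reads in Fb and 9894485 to 11149046 in ESC libraries, and of these mature miRNAs received 49019 to 177990 reads in Fb against 1392859 to 1522604 in ESC libraries. That is 0.613% to 2.05% of all reads in Fb and 13.3% to 14.7% in ESC libraries. Fb replicate 1 stood apart, with the fewest miRNA reads and the lowest share, and results that it decides are also given without it. Stromal miRNAs (miR-143, miR-145a, miR-199 and miR-214) took 19.5% to 30.3% of miRNA reads in Fb and 0.0175% to 0.0209% in ESC libraries. Of these, 6 of 6 were called higher in Fb by the test described below, which called 27.7% of all miRNAs tested higher and 21.8% lower. The 6 calls are not separate results. miR-145a-5p, miR-199a-5p and miR-214-3p, at ESC means of 0.690, 0.458 and 1.35 CPM, passed the count filter through the Fb libraries alone. For these, hardly any call but higher in Fb was possible. miR-199b-3p, with 65, 0.25 and 0 reads in ESC libraries, also passed only because of the Fb libraries. Reads moved between the miR-199a-3p and miR-199b-3p rows (4791 against 686 in Fb replicate 1, 0.676 against 35091 in Fb replicate 2). miR-143-3p, at an ESC mean of 131 CPM, had a log2 fold change of 9.03. Epithelial miRNAs (miR-200 family, miR-203 and miR-205) took 0.746% to 1.42% in Fb and 5.99% to 7.46% in ESC libraries, with 7 of 7 called lower in Fb. One of the 7, miR-200b-3p, had 1, 7 and 1 reads in Fb libraries and passed the count filter through the ESC libraries alone. Hardly any call but lower in Fb was possible for it. The shares of the stromal and epithelial lists went with the labelled cell types. Of other cell types, the leukocyte miRNA miR-142a-3p, the neural miR-9-5p and the pigment-cell miR-211-5p had 0 reads in every library. The endothelial pair miR-126a-3p and miR-126a-5p took 0.0109% to 0.0347% in Fb and 0.00771% to 0.0120% in ESC libraries. The summed share of 4 leukocyte miRNAs was 0.00309% to 0.0102% in Fb against 0.0000239% to 0.000270% in ESC libraries, and of 4 red-cell miRNAs 0.115% to 2.22% in Fb against 0.0196% to 0.0303% in ESC libraries. The red-cell sum was mostly miR-486a-5p and miR-486b-5p, while in Fb miR-451a had 2, 1 and 7 reads and miR-144-3p 0, 0 and 1. Reads moved between the miR-486 rows (0.0604 against 314 in ESC replicate 1). Neither was called, at log2 fold changes of 4.90 and 4.85. For 3 neural miRNAs it was 0.0337% to 0.0619% in Fb against 0.0214% to 0.0274% in ESC libraries, for 2 pigment-cell miRNAs 0% to 0.00168% in Fb against 0.000215% to 0.000338% in ESC libraries, and for 3 muscle miRNAs 0.0466% to 0.171% in Fb against 0.0123% to 0.0161% in ESC libraries. Of the 8 members of these lists that were tested, 3 were called, all higher in Fb exosomes. They were miR-142a-5p (log2 fold change 5.60), miR-133a-3p (3.55) and miR-206-3p (1.39). miR-142a-5p had 5, 3 and 8 reads in Fb against 0, 1 and 2 in ESC libraries. miR-133a-3p had 14, 5 and 8 reads in Fb against 9.95, 2 and 16 in ESC libraries. Both, at ESC means of 0.663 and 6.33 CPM, passed the count filter through the Fb libraries alone. Little but a call of higher in Fb was open to them. The part of such cells in the results below was not tested.

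All 4 miRNAs took a larger share of the miRNA reads in Fb exosomes, and a smaller share of all reads. Within miRNA reads the ratio of group means was 2.07 (miR-222-3p) to 4.31 (miR-212-3p), and within all reads 0.231 (miR-222-3p) to 0.477 (miR-212-3p). Both statements hold in every library: 4 of 4 were higher in every Fb than in every ESC library on the first scale, as were 36% of the 325 miRNAs tested, of which 24.9% were lower in every Fb library. On the second scale 4 of 4 were lower in every Fb library, as were 74.8% of the 325, with 10.5% higher. The test scales libraries further by TMM, which evens out the bulk of the miRNAs, and under it the miR-132/miR-212 pair passed and the miR-221/miR-222 pair did not. With miRNA totals as the only scaling all 4 passed in edgeR, where 47.7% of the 325 were called, 31.7% higher and 16% lower. After TMM scaling, 3 of the 4 were still higher in every Fb library, as were 30.5% of the 325, with 32% lower. The exception was miR-221-3p, and miR-222-3p was higher by a bare margin. Within all reads the Fb over ESC ratio was 0.231 for miR-222-3p and 0.273 for miR-221-3p with all libraries. Without Fb replicate 2 these were 0.152 and 0.179, and without Fb replicate 1 they were 0.309 and 0.384. For miR-132-3p and miR-212-3p the ratio without Fb replicate 1 was 0.398 and 0.637.

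miR-132-3p, the more abundant member of its pair, is given first in CPM, reads scaled to a total of 1000000 mature miRNA reads per library. It was at 673, 433 and 623 CPM in Fb replicates 1, 2 and 3, against 190, 185 and 154 CPM in the ESC replicates. The groups did not overlap, and the lowest Fb library was above the highest ESC library by more than the exact 95% counting intervals, 341 to 541 CPM in Fb replicate 2 and 167 to 214 CPM in ESC replicate 1. The means were 576 ± 127 CPM in Fb and 176 ± 19.4 CPM in ESC exosomes (SD, n = 3 each), and the log2 fold change was 1.29 (SE 0.27, edgeR quasi-likelihood test, adjusted p = 0.00663 by Benjamini-Hochberg over 325 miRNAs). The reads behind it were 33, 77 and 74 in Fb and 264, 273 and 234 in ESC libraries. The call was lost when ESC replicate 1, ESC replicate 2 or Fb replicate 3 was left out (adjusted p by edgeR 0.0639, 0.0593 and 0.0848) and with no count filter (edgeR adjusted p = 0.311).

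miR-212-3p, its less abundant partner, rested on few reads in Fb exosomes. It had 4, 19 and 12 reads in the Fb libraries and 27, 39 and 29 in the ESC libraries, estimated counts rounded to whole numbers. These gave 76.5, 105 and 97.3 CPM in Fb against 19.4, 26.3 and 19.0 CPM in ESC exosomes. The groups did not overlap, but the exact counting interval of Fb replicate 1, 22.2 to 209 CPM, reached into that of ESC replicate 2, 18.8 to 36.1 CPM. The means were 93.1 ± 14.9 CPM in Fb and 21.6 ± 4.13 CPM in ESC exosomes (SD, n = 3 each), and edgeR gave a log2 fold change of 1.82 ± 0.38 (SE) at an adjusted p = 0.00673. The call was lost when ESC replicate 1, Fb replicate 2 or Fb replicate 3 was left out (adjusted p by edgeR 0.0509, 0.0566 and 0.0554), with no count filter (edgeR adjusted p = 0.129) and with the replicate number as a block (edgeR adjusted p = 0.0641).

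miR-221-3p ranked high in both kinds of exosome. It was at 15137, 40671 and 32228 CPM in the Fb libraries, ranks 17, 5 and 5 of all mature miRNAs, against 14222, 12823 and 11662 CPM in the ESC libraries, ranks 17, 18 and 21. On this scale Fb replicate 1 lay just above the highest ESC library, within overlapping exact counting intervals (14075 to 16257 CPM in Fb replicate 1 against 14026 to 14420 CPM in ESC replicate 1), and the other two Fb libraries lay far above. On the TMM scale behind the test its order turned: miR-221-3p was at 13.46, 15.26 and 14.84 log2 CPM in Fb replicates 1, 2 and 3 against 14.01, 13.79 and 13.76 log2 CPM in ESC replicates, so Fb replicate 1 was below every ESC library. The 2.69-fold spread among Fb libraries compares with 1.22-fold among ESC libraries, and counting error does not cover it. The means were 29345 ± 13009 CPM in Fb and 12902 ± 1282 CPM in ESC exosomes (SD, n = 3 each). The log2 fold change of 0.84 (SE 0.45) did not pass, at an edgeR adjusted p = 0.154. It passed with miRNA totals alone (1.19, edgeR adjusted p = 0.0412) and with a stricter count filter (1.36, edgeR adjusted p = 0.0359). Without Fb replicate 1 it was 1.12 (SE 0.17, edgeR adjusted p = 0.00132), and without Fb replicate 2 it was 0.27 (SE 0.49, edgeR adjusted p = 0.700), so the size of this difference rests on single Fb libraries.

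miR-222-3p followed the same order of groups at a lower level. It was at 1591, 2483 and 1751 CPM in Fb against 1021, 953 and 836 CPM in ESC exosomes, and no Fb library overlapped an ESC library. After TMM scaling Fb replicate 1 and ESC replicate 1 were level, at 10.21 log2 CPM each. The means were 1942 ± 476 CPM in Fb and 937 ± 93.5 CPM in ESC exosomes (SD, n = 3 each). The log2 fold change of 0.68 (SE 0.35) did not pass, at an edgeR adjusted p = 0.135, but did with miRNA totals alone (1.05, edgeR adjusted p = 0.0202) and with the stricter filter (1.21, edgeR adjusted p = 0.0186). It was 0.80 (SE 0.25, edgeR adjusted p = 0.0304) without Fb replicate 1 and 0.14 (SE 0.39, edgeR adjusted p = 0.801) without Fb replicate 2.

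**Figure D1:**
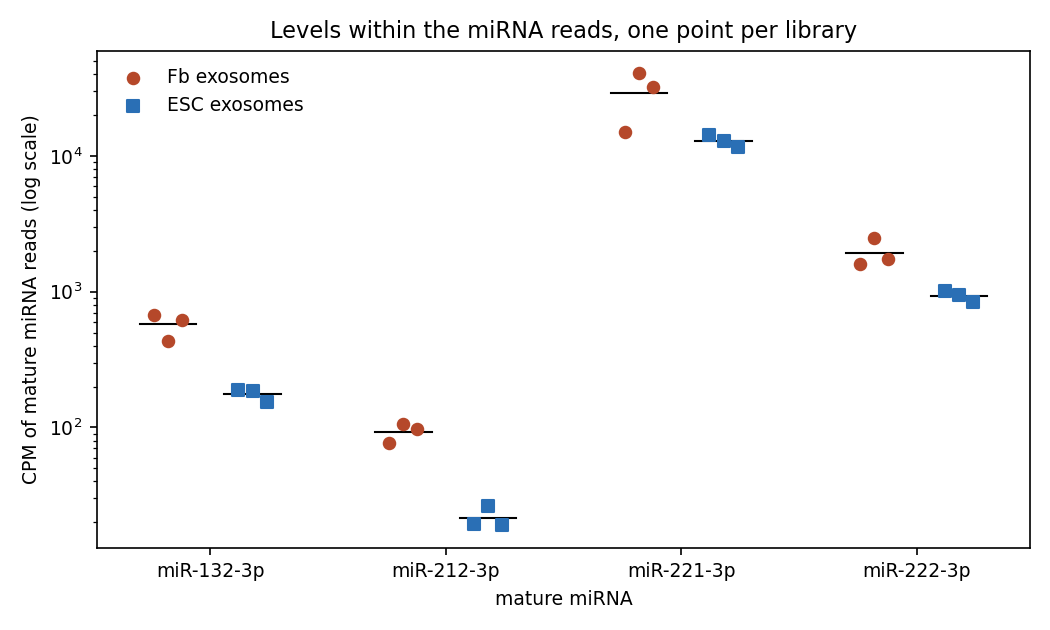
CPM of mature miRNA reads (vertical axis, log scale) of each miRNA in 3 Fb libraries (circles) and 3 ESC libraries (squares); points run from replicate 1 to 3 and lines are group means. Each miRNA is higher in every Fb library, with miR-221-3p of Fb replicate 1 (15137 CPM) only just above the ESC libraries.

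Within every library the order of levels was miR-221-3p, miR-222-3p, miR-132-3p and miR-212-3p, the mature forms being 22 or 23 bases long. No neighbours in that order overlapped in either group. As a ratio, the gap was narrowest between miR-222-3p and miR-132-3p, at 1591 against 673 CPM in Fb replicate 1. By rank among all mature miRNAs, miR-222-3p stood at 68, 49 and 64 in Fb and 70, 75 and 76 in ESC libraries, miR-132-3p at 101, 116 and 102 in Fb against 128, 129 and 134 in ESC libraries, and miR-212-3p at 232, 181 and 196 in Fb against 238, 229 and 240 in ESC libraries.

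The fold changes of these miRNAs were modest beside the whole table. The 2 calls among the 4 compare with 49.5% of the 325 miRNAs tested called in either direction, 27.7% higher and 21.8% lower in Fb exosomes, so the count of calls does not set these miRNAs apart. With miRNA totals alone 103 miRNAs were called higher and 52 lower, against 90 and 71, and the median log2 fold change over all was 0.52. The calls over all miRNAs numbered 161 of 325 tested. They were 107 of 245 tested without ESC replicate 3 and 103 of 374 tested without Fb replicate 3. Of the 325 miRNAs, 81 had a higher log2 fold change than miR-212-3p, 102 than miR-132-3p, 123 than miR-221-3p and 131 than miR-222-3p. Over all 325 the median was 0.11, and relative to it the values were 1.71 for miR-212-3p, 1.18 for miR-132-3p, 0.73 for miR-221-3p and 0.57 for miR-222-3p.

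**Figure D2:**
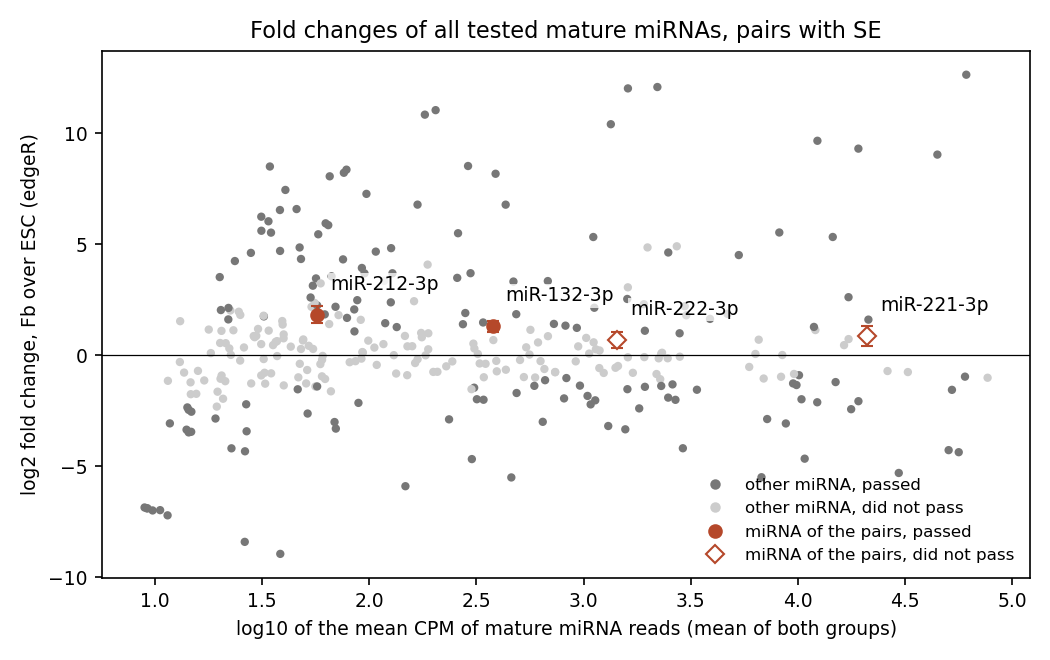
Log2 fold change (Fb over ESC, edgeR; vertical axis) against log10 of the mean CPM of mature miRNA reads (horizontal axis) for all 325 miRNAs tested, with the 4 miRNAs of the pairs marked and their SE as bars. Filled symbols passed an adjusted p of 0.05: miR-212-3p (1.82) and miR-132-3p (1.29) did, miR-221-3p (0.84) and miR-222-3p (0.68) did not.

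On the scale of all assigned reads the direction turned, since miRNAs as a whole took a smaller share of the Fb reads. miR-221-3p was at 92.8, 833 and 553 CPM of all reads (scaled to 1000000 reads of any RNA) in Fb against 2002, 1701 and 1712 CPM of all reads in ESC exosomes. Every Fb library lay below every ESC library, with an 8.97-fold spread among Fb libraries, and the means were 493 ± 374 in Fb and 1805 ± 171 CPM of all reads in ESC exosomes (SD, n = 3 each). miR-222-3p was at 9.76, 50.9 and 30.1 in Fb against 144, 126 and 123 CPM of all reads in ESC exosomes.

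The miR-132/miR-212 pair went the same way on this scale. miR-132-3p was at 4.13, 8.86 and 10.7 CPM of all reads in Fb against 26.7, 24.5 and 22.6 in ESC exosomes. miR-212-3p was at 0.469, 2.16 and 1.67 in Fb against 2.73, 3.49 and 2.79 CPM of all reads in ESC exosomes. Every Fb library lay below every ESC library for both. Each of the 4 comparisons had a two-sided exact permutation p = 0.1, and groups of 3 cannot give a smaller one.

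A count model on this scale, added after the data were seen, used all reads as library size. It gave log2 fold changes of -2.11 for miR-222-3p (SE 0.65, edgeR adjusted p = 0.0159), -1.87 for miR-221-3p (SE 0.71, edgeR adjusted p = 0.0372) and -1.64 for miR-132-3p (SE 0.52, edgeR adjusted p = 0.0188). miR-212-3p, at -1.02 (SE 0.58, edgeR adjusted p = 0.135), did not pass. There 66.8% of the miRNAs tested were called lower and 10.8% higher in Fb exosomes, and the median log2 fold change was -2.72. Relative to that median the 4 miRNAs were again above, by 1.70 for miR-212-3p, 1.08 for miR-132-3p, 0.85 for miR-221-3p and 0.60 for miR-222-3p.

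**Figure D3:**
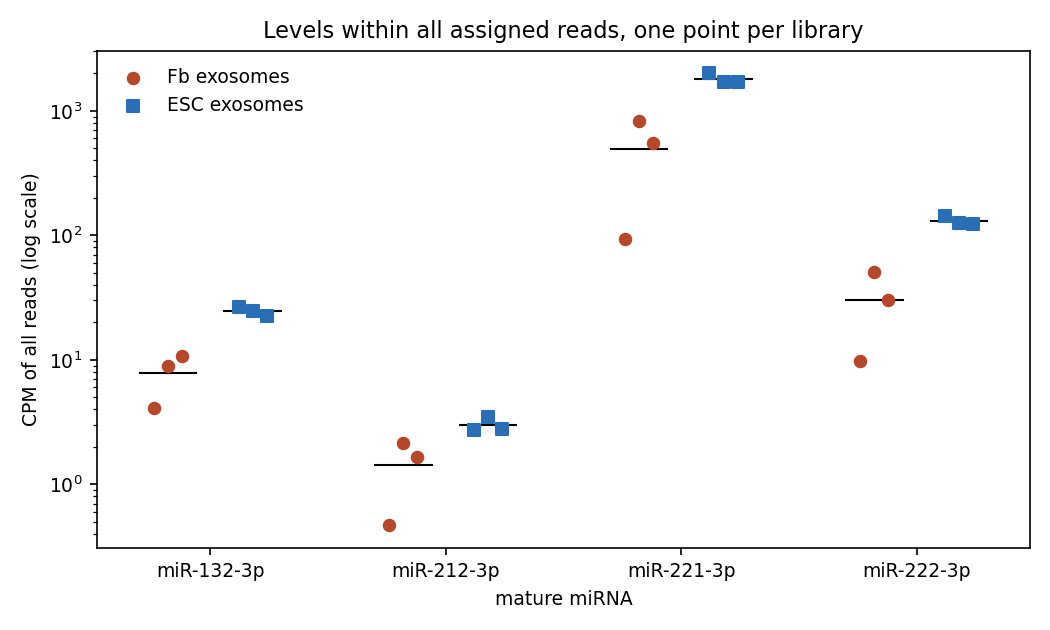
CPM of all assigned reads (vertical axis, log scale) of each miRNA in 3 Fb libraries (circles) and 3 ESC libraries (squares), with lines for group means. Every Fb point is below every ESC point of the same miRNA, and miR-221-3p runs from 92.8 to 833 among Fb libraries.

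When miRNAs were fitted together with all other RNAs, none of the 4 passed. The log2 fold changes there were 0.47 for miR-132-3p, 1.10 for miR-212-3p, 0.54 for miR-221-3p and 0.26 for miR-222-3p, with edgeR adjusted p from 0.589 to 0.953 over 2999 RNAs, of which 8.17% were called higher and 3.63% lower in Fb exosomes. In that fit the TMM scaling factors ran from 0.231 to 2.18 among Fb libraries and from 1.62 to 1.63 among ESC libraries. The sign of a difference for these miRNAs therefore depends on what it is scaled to, and no measure of RNA per vesicle was used here.

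**Figure D4:**
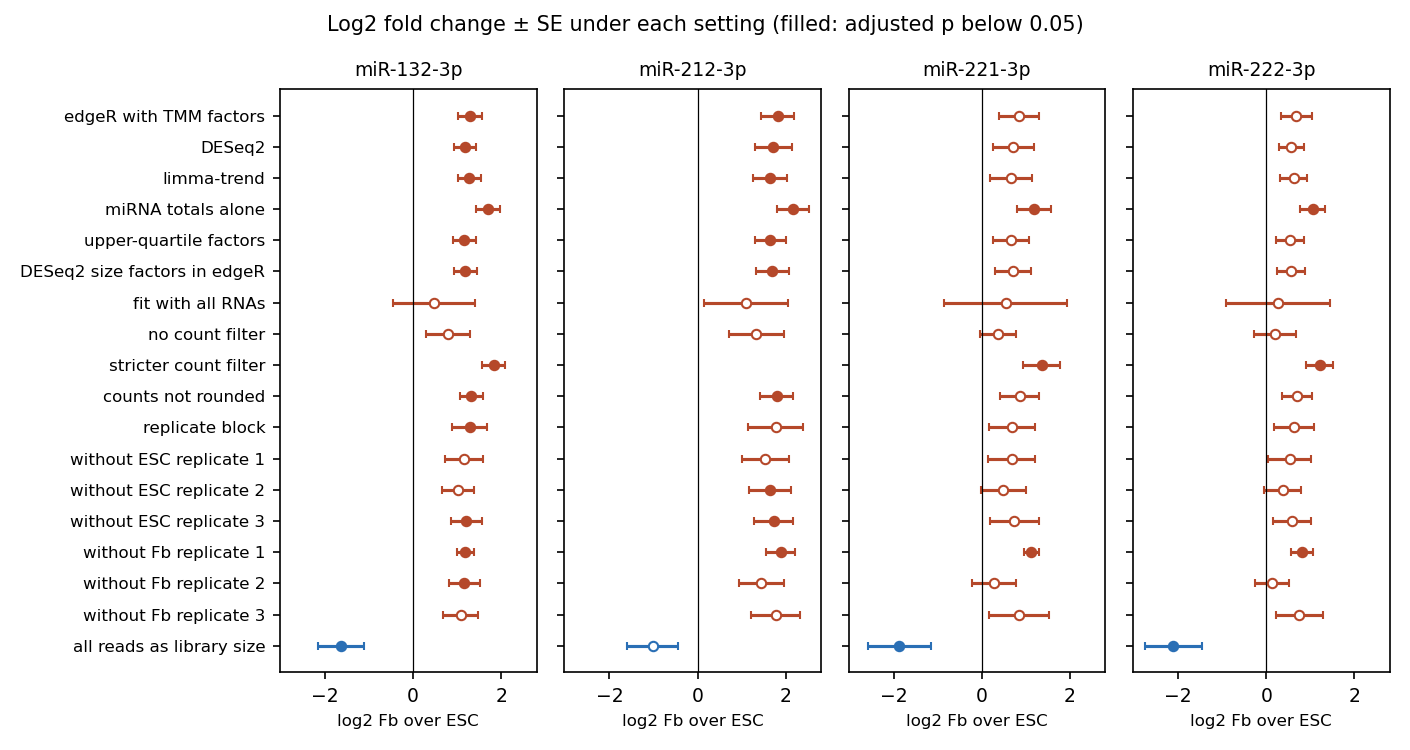
Log2 fold change (Fb over ESC, horizontal axis, bars are SE) of each miRNA under each setting of the test (rows); filled points had an adjusted p below 0.05. Values are positive under every setting except with all reads as library size, where they run from -2.11 to -1.02, and miR-212-3p has no value under the stricter count filter.

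The ratio within a pair needs no scaling between libraries. miR-132-3p exceeded miR-212-3p in every library, by 8.80, 4.11 and 6.40 times in Fb and 9.79, 7.01 and 8.08 times in ESC exosomes. The groups overlapped. The mean log2 ratio was 2.54 ± 0.49 in Fb and 3.02 ± 0.24 in ESC exosomes (SD, n = 3 each; difference -0.48, two-sided exact permutation p = 0.2). Leaving out single libraries gave differences from -0.70 to -0.21.

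As a share of the reads of both, miR-132-3p held 89.8% (exact 95% interval 74.6 to 97.0), 80.4% (70.8 to 87.6) and 86.5% (76.9 to 92.6) in Fb replicates 1 to 3. In ESC replicates 1 to 3 it held 90.7% (86.8 to 93.8), 87.5% (83.3 to 91.0) and 89.0% (84.5 to 92.5). All 6 intervals overlapped, and the lowest share was that of Fb replicate 2.

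miR-221-3p exceeded miR-222-3p by 9.51, 16.4 and 18.4 times in the Fb libraries and by 13.9, 13.5 and 13.9 times in the ESC libraries. The ESC libraries were nearly alike, and the Fb libraries lay on both sides of them. The mean log2 ratio was 3.82 ± 0.51 in Fb and 3.78 ± 0.03 in ESC exosomes (SD, n = 3 each; difference 0.04, two-sided exact permutation p = 1.0). Without Fb replicate 1 the difference was 0.33, and without Fb replicate 2 or 3 it was -0.06 or -0.15.

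The depth of this pair resolves the single libraries. miR-221-3p held 90.5% of the pair in Fb replicate 1 (exact 95% interval 88.3 to 92.4), below the intervals of all other libraries. It held 94.2% (93.7 to 94.8) in Fb replicate 2 and 94.8% (94.1 to 95.5) in Fb replicate 3, against 93.3% (93.0 to 93.6), 93.1% (92.7 to 93.4) and 93.3% (92.9 to 93.7) in ESC replicates 1 to 3. Each Fb library thus differed from the ESC libraries by more than counting error, but not all in one direction.

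**Figure D5:**
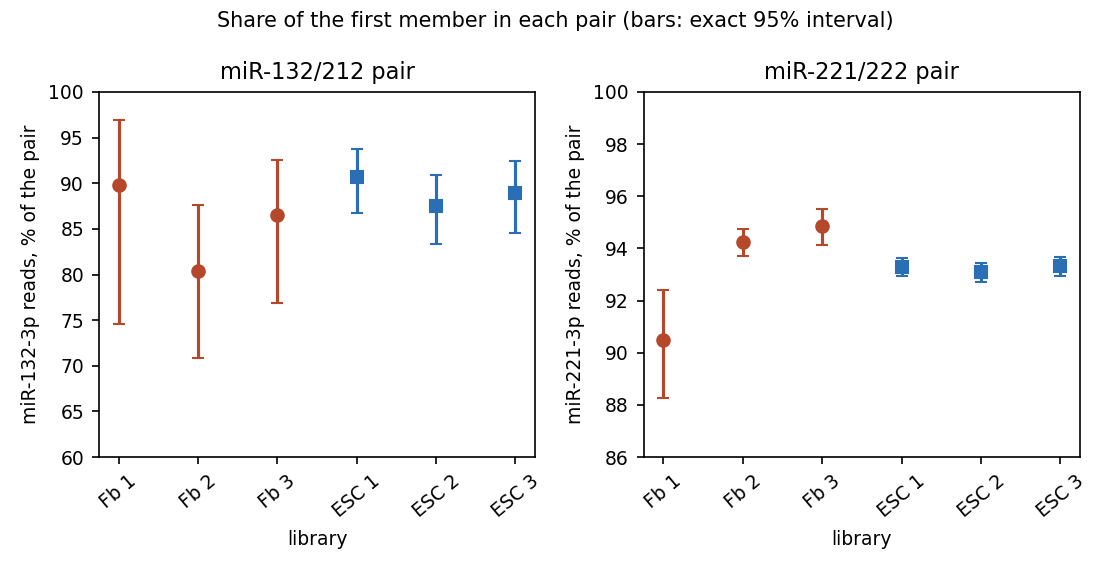
Reads of miR-132-3p as percent of miR-132-3p plus miR-212-3p (left) and of miR-221-3p as percent of miR-221-3p plus miR-222-3p (right; axes do not start at 0) in each library, with exact 95% binomial intervals. In the right panel Fb replicate 1 (90.5%) is below and Fb replicates 2 and 3 (94.2% and 94.8%) are above the ESC libraries.

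Summed, miR-132-3p and miR-212-3p took 669 ± 115 CPM in Fb and 197 ± 21.5 CPM in ESC exosomes, a ratio of 3.39, and miR-221-3p and miR-222-3p took 31287 ± 13417 CPM in Fb and 13839 ± 1373 CPM in ESC exosomes, a ratio of 2.26 (SD, n = 3 each; two-sided exact permutation p = 0.1 for either sum). The miR-221/miR-222 sum exceeded the miR-132/miR-212 sum by 22.3, 80.2 and 47.2 times in the Fb libraries and by 73.0, 65.3 and 72.4 times in the ESC libraries. The groups overlapped, with Fb replicate 2 above all ESC libraries and Fb replicates 1 and 3 below them.

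Nearly all reads of these hairpins came from the 3p arm. Over the 6 libraries the 3p rows held 74253 reads, the 5p rows 117 and the hairpin rows 3.64. miR-222-5p was the only 5p arm with enough reads for the test, with 3, 6 and 4 reads in Fb and 20, 26 and 27 in ESC libraries. Its log2 fold change was 0.87 (SE 0.42), which did not pass (edgeR adjusted p = 0.126).

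As a share of the reads of both arms, miR-222-5p held 3.70%, 1.34% and 1.89% in Fb and 1.39%, 1.81% and 2.07% in ESC libraries, so the groups overlapped. The 5p arm of miR-221 was far scarcer beside its 3p arm, with 13, 2 and 4 reads in the ESC libraries and 0 in every Fb library. A count of 0 there, taken as a limit of 3 counts, allows up to 0.404%, 0.0414% and 0.0784% of the reads of both arms in Fb replicates 1 to 3, against observed shares of 0.0656%, 0.0105% and 0.0225% in ESC replicates 1 to 3. The limit of Fb replicate 2 lay below the share of ESC replicate 1 and above those of the other two, and the limits of the other Fb libraries lay above all 3. miR-132-5p had 2, 4 and 4 reads in ESC libraries and miR-212-5p 2 reads in ESC replicate 3 alone, and both had 0 in every Fb library.

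The hairpin rows bear on how the counts were made. In 21 of 24 combinations of precursor and library the 3p, 5p and hairpin rows added up to a whole number within 0.01. In some of these the hairpin row held less than that tolerance, as for mir-221 in Fb libraries (0.00677 to 0.00765 reads). The sum is then whole whether or not reads were divided. Division shows where both rows held fractions, as for mir-212 in Fb replicate 2 (18.75 and 0.25) and replicate 3 (11.56 and 0.444). The hairpin row held at most 1.17 reads, in the mir-212 row of Fb replicate 1, where it was 31.1% of the 3.75 estimated miR-212-3p reads. Elsewhere it was at most 3.85% of the 3p row, for mir-212 in Fb replicate 3.

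The miRNAs whose pattern over the 6 libraries was most like each of these were found by the root mean square difference of centred log2 CPM after TMM scaling. For miR-132-3p they were miR-140-5p (0.167), miR-378a-3p (0.188) and miR-101a-3p (0.219). For miR-212-3p they were miR-532-5p (0.233), miR-206-3p (0.281) and miR-872-5p (0.300). For miR-221-3p they were miR-27b-3p (0.166), miR-181d-5p (0.2003) and let-7i-5p (0.217), and for miR-222-3p let-7i-5p (0.120), miR-652-3p (0.178) and miR-181d-5p (0.188).

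No pair partner was among these nearest miRNAs. Of 324 others, miR-222-3p was the 6th nearest to miR-221-3p (0.295) and miR-212-3p the 13th nearest to miR-132-3p (0.369). Across pairs the differences were larger, from 0.509 between miR-132-3p and miR-222-3p to 0.672 between miR-132-3p and miR-221-3p. These distances share libraries and depth and carry no test.

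Other miRNAs known to be induced by stimulation were divided. Of 6 tested, 4 were higher and 1 was lower in Fb exosomes and 1 did not pass, beside 27.7% higher and 21.8% lower over all 325. miR-155-5p, which immune and growth signals induce through AP-1 and NF-kB, was at 1256 ± 363 CPM in Fb and 392 ± 7.74 CPM in ESC exosomes (SD, n = 3 each), a log2 fold change of 1.33 ± 0.38 (SE) at an edgeR adjusted p = 0.0233. miR-146a-5p, an NF-kB-induced brake on inflammatory signalling, was at 1994 ± 1031 CPM in Fb and 57231 ± 5143 CPM in ESC exosomes, a log2 fold change of -5.31 ± 0.38 (SE) at an edgeR adjusted p = 5.66e-05. miR-21a-5p, an AP-1 target, was at 59364 ± 21953 CPM in Fb and 94494 ± 5115 CPM in ESC exosomes and did not pass, with a log2 fold change of -1.02 ± 0.39 (SE) at an edgeR adjusted p = 0.0679. The other 3, miR-134-5p, miR-379-5p and miR-381-3p of the Dlk1-Dio3 cluster, are induced by activity in neurons. They were higher in Fb exosomes on 4 to 11 reads in each Fb library and 0 to 4 in each ESC library. At ESC means of 0.451, 2.51 and 0.479 CPM, they passed the count filter through the Fb libraries alone. Little but a call of higher in Fb was open to them, and they share 1 cluster. The count of 4 higher is therefore not a result about induced miRNAs.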

How the data were processed

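Per the labels' protocols, exosomes were pelleted by ultracentrifugation after filtering and concentrating the medium, and CleanTag small RNA libraries were made from column-purified RNA. The submitters' processing notes name FastQC, cutadapt and GRCm38. The sources used here do not give how reads were aligned, counted, assigned by strand or shared between RNAs. The authors deposited estimated counts per annotated non-coding RNA, 1 table per library, with no scaling.

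These estimated counts were rounded and fitted in edgeR 4.0.16 (R 4.3.3) over all mature miRNAs by the quasi-likelihood method. TMM scaled the libraries, filterByExpr removed low rows (minimum count 10, minimum total 15), the model held group alone, and Benjamini-Hochberg adjusted p was set at 0.05. The minimum count acts as a CPM cutoff at the median library size, so fewer than 10 reads can meet it in Fb libraries. There 1 read was 5.62 to 20.4 CPM, against 0.657 to 0.718 CPM in ESC libraries. Rows could thus pass through Fb libraries alone. Other rows passed through ESC libraries alone, some at a mean of 0 CPM in Fb exosomes. The shares called higher and lower over all miRNAs include such rows. All 4 miRNAs of the pairs passed the count filter. Fold changes are Fb over ESC, and the SE is the log2 fold change over the root of F. Levels, ratios (0.5 reads added to both members before log2) and shares use unrounded counts. Groups were compared by two-sided exact permutation tests (scipy 1.17.1), and intervals are exact Clopper-Pearson at 95%. Intervals and the floor of 3 counts cover counting error only, since reads carry no molecular identifiers. That floor was 16.9 to 61.2 CPM in Fb and 1.97 to 2.15 CPM in ESC libraries. Alternatives were DESeq2 1.42.0, limma-trend (limma 3.58.1, prior count 2), other scalings, filters and totals, the replicate number as a block, and each library left out. The labels call the libraries biological replicates but name no animal for any, and p-values therefore reflect variation between libraries, which may be technical.

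The miRNAs, the lists and the tests were chosen with earlier results of these data known. The rule for naming RNAs took the 4 miRNAs, their 5p arms and hairpins, others with a shared seed, the 3 nearest patterns of each, the stimulus-induced list with 3 examples, and rows within 10 kb. Marker lists served to check the cell types.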

Additional observations from a re-analysis of the deposited data

How the results depend on the processing

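Of 67 alternative values of the fitted fold changes, 46 kept the direction and the side of the threshold, 6 became calls, 11 lost a call and 4 reversed. Of 62 for the ratios, sums and shares of all reads, 58 kept the direction and 4 reversed; their permutation tests cannot pass the threshold at this size. Of 17 counts of calls, 5 moved by over 1.5 times. The cause was not tested except where the setting itself gives it. Fitted with all RNAs, 69 of 307 miRNAs tested were called, and log2 fold changes were 0.47 (miR-132-3p) and 1.10 (miR-212-3p). With no count filter they were 0.80 and 1.34. The stricter filter of 50 reads in 3 libraries left 89 calls among 197 miRNAs tested. It raised miR-221-3p to 1.36 and miR-222-3p to 1.21, past the threshold, and removed miR-212-3p. miRNA totals alone gave 1.19 and 1.05, also past it. All reads as library size, added after the data were seen, gave 252 calls and values of -1.64 (miR-132-3p), -1.02 (miR-212-3p), -1.87 (miR-221-3p) and -2.11 (miR-222-3p). With all reads as total the Fb over ESC ratio was 0.338 for the miR-132 and miR-212 sum and 0.270 for the miR-221 and miR-222 sum.

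Leaving out 1 library gave from 103 calls (374 tested, without Fb replicate 3) to 213 calls (380 tested, without Fb replicate 1). Log2 fold changes were then 1.03 to 1.20 (miR-132-3p), 1.45 to 1.89 (miR-212-3p), 0.27 to 1.12 (miR-221-3p) and 0.14 to 0.80 (miR-222-3p). The difference in the log2 ratio of miR-221-3p to miR-222-3p ranged from -0.15 to 0.33 and was -0.06 without Fb replicate 2.

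The labels do not say that replicate numbers pair libraries, and same-numbered libraries did not deviate together (correlations -0.259, -0.110 and -0.133 across 325 miRNAs). With the replicate number as a block, 114 miRNAs were called, miR-132-3p passed (1.29, edgeR adjusted p = 0.0443) and miR-212-3p did not (1.77, edgeR adjusted p = 0.0641). Depth limits miR-212-3p and the 5p arms most, with 4 to 19 and 0 to 6 reads in Fb libraries.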
